A study of Arabidopsis thaliana with 8 samples.

Results

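Fatty acids of plant cells are made in the plastid, where acetyl-CoA carboxylase supplies malonyl units and the enzymes of fatty acid synthase lengthen an acyl chain bound to acyl carrier protein (ACP). KAR, the 3-ketoacyl-ACP reductase, carries out the first reduction of each round, and FATB is the acyl-ACP thioesterase that releases mainly saturated chains, which can then leave the plastid. Fibrillins are lipid-associated proteins of plastoglobules, the lipid droplets attached to thylakoid membranes, and of the thylakoids themselves. The 4 genes described here are FATB (AT1G08510) and KAR (AT1G24360) of fatty acid synthesis, and the fibrillins FBN2 (AT2G35490) and AT2G46910. They were taken as the genes named alone by the platform annotation of a probe, and each had 1 such probe among the 692 probes with 1 gene and the 3439 probes on the array. The annotation gives AT1G24360 and AT2G35490 by locus only, so the names KAR and FBN2 come from general knowledge of these genes. FATB, FBN2 and AT2G46910 are each also listed on 1 further probe with several genes, which was not used.

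Total RNA came from wild-type Arabidopsis thaliana of the ecotype Columbia 0. The 4 arrays of the high CO2 group held RNA of plants finally kept for 1 d in air with 1% CO2 by volume, and the 4 arrays of the normal CO2 group, labelled 0 d, held RNA of plants at normal CO2. The labels name no plants kept at normal CO2 for the further day, so the CO2 level, the day and the move cannot be told apart. Neither the tissue nor the age of the plants is stated, and of the 14 leaf, root and guard cell marker genes listed for a check, 0 were on a probe with 1 gene. It is not stated whether replicates are separate plants. The p-values then describe the spread between these arrays only, and part of it may be technical.

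The values as deposited are relative intensities that end at 100 on every array, with array medians from 0.212 to 0.280 and 133 to 219 probes per array listed at 0. All 4 members were above 0 on all 8 arrays, and all 4 entered the comparison of 3154 probes. Within a group, replicates 1 and 2, and replicates 3 and 4, were more alike (correlations of 0.893 to 0.970 across probes) than arrays taken from different pairs (0.855 to 0.902). The labels do not say what these sets of arrays are, and results are therefore also given within each set.

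After 1 d at high CO2, the FATB transcript was 2.26 times as abundant as at normal CO2, while both fibrillin transcripts were lower, FBN2 at 50.4% and AT2G46910 at 48.2% of their normal CO2 level. KAR had no detectable difference. Of the 4 members, 1 rose, 2 fell and 1 did not pass, at an adjusted p threshold of 0.05 in limma. Among all tested probes 32.6% passed, 14.3% higher and 18.3% lower, so calls as such were common on these arrays. Higher probes made up 43.9% of the calls here and 56.3% without normalization. In RNA of whole samples, fewer cells that express a gene and less of its RNA per cell cannot be told apart.

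FATB had deposited intensities of 0.365, 0.499, 0.450 and 0.494 on high CO2 replicates 1 to 4, against 0.221, 0.207, 0.134 and 0.203 on normal CO2 replicates 1 to 4. Every high CO2 array lay above every normal CO2 array, as was the case for 18.8% of the 2932 tested probes above 0 on all arrays. The mean intensity was 0.452 ± 0.0622 at high CO2 and 0.192 ± 0.0388 at normal CO2 (SD, n = 4 each). On the log2 scale after normalization the difference was 1.18 ± 0.18 (limma, SE, adjusted p = 0.00298), or 2.26-fold with a 95% interval of 1.69 to 3.03. After normalization the rise was of similar size in both sets of arrays, with a log2 fold change of 1.21 in replicates 1 and 2 and 1.14 in replicates 3 and 4. The deposited means rose from 0.214 to 0.432 in replicates 1 and 2 and, more strongly, from 0.169 to 0.472 in replicates 3 and 4. FATB passed in each set alone, where 29.6% and 27.8% of all probes passed (adjusted p of 0.0305 and 0.0437 by limma). A set has 2 arrays per group, so these p-values, and those within sets below, describe only the spread within a set. FATB stood near the middle of the probes that rose, since 232 of the 452 had a larger log2 fold change.

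KAR was measured at 0.112, 0.169, 0.0756 and 0.0750 on high CO2 replicates 1 to 4, against 0.0898, 0.103, 0.0872 and 0.0690 on normal CO2 replicates 1 to 4. High CO2 replicate 2 was the highest array, and the other high CO2 arrays lay within or close to the range of the normal ones. The mean intensity was 0.108 ± 0.0444 at high CO2 and 0.0873 ± 0.0141 at normal CO2 (SD, n = 4 each). The log2 fold change of 0.13 ± 0.37 (SE) did not pass (adjusted p = 0.808 by limma). Its 95% interval runs from 61.0% to 196% of the normal CO2 level, so these arrays leave room for a change in either direction. After normalization the sets of arrays gave opposite signs, with 0.70 in replicates 1 and 2 and -0.43 in replicates 3 and 4. The deposited means were 0.141 at high and 0.0965 at normal CO2 in replicates 1 and 2. In replicates 3 and 4 they were 0.0753 and 0.0781, so the fall there was slight before normalization. The difference between the sets after normalization, tested as an interaction, was -1.14 ± 0.36 (SE). It had an unadjusted p of 0.0208 and an adjusted p of 0.101 by limma, where 9.26% of all probes passed. Without high CO2 replicate 2 the log2 fold change of KAR was -0.19. The KAR probe was dim, with every value below the lowest array median of 0.212. It was not among the probes kept when the dimmest 25% were left out.

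FBN2 had intensities of 0.179, 0.198, 0.294 and 0.234 on high CO2 replicates 1 to 4, against 0.447, 0.512, 0.365 and 0.377 on normal CO2 replicates 1 to 4. Every high CO2 array was below every normal CO2 array, which held for 16.9% of the tested probes above 0 on all arrays. Its mean was 0.226 ± 0.0504 at high CO2 and 0.425 ± 0.0681 at normal CO2 (SD, n = 4 each). The log2 fold change was -0.99 ± 0.14 (limma, SE, adjusted p = 0.00230), which leaves 50.4% of the normal CO2 level (95% interval 40.1% to 63.3%). After normalization it was -1.13 in replicates 1 and 2 and -0.85 in replicates 3 and 4, with adjusted p-values of 0.0240 and 0.0418 by limma. The difference between the sets did not pass (0.24 ± 0.23 SE, adjusted p = 0.541 by limma). The deposited means fell from 0.479 to 0.188 in replicates 1 and 2 and, less strongly, from 0.371 to 0.264 in replicates 3 and 4.

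AT2G46910, the second fibrillin, was at 0.423, 0.362, 0.341 and 0.408 on high CO2 replicates 1 to 4, against 1.00, 0.955, 0.573 and 0.579 on normal CO2 replicates 1 to 4. Here too every high CO2 array was below every normal CO2 array, as for 16.9% of the tested probes above 0 on all arrays. In deposited values the high CO2 arrays were close together at 0.384 ± 0.0385, and the normal CO2 arrays were at 0.777 ± 0.233 (SD, n = 4 each). The normal CO2 arrays separated into replicates 1 and 2 with a mean of 0.979 and replicates 3 and 4 with a mean of 0.576. After normalization the high CO2 arrays separated by set too, at log2 values of -1.09 and -1.31 in replicates 1 and 2 and -1.76 and -1.52 in replicates 3 and 4. The log2 fold change was -1.05 ± 0.23 (limma, SE, adjusted p = 0.0109), or 48.2% of the normal CO2 level with a 95% interval of 33.4% to 69.6%. After normalization the log2 fold change was -1.14 in replicates 1 and 2 and -0.95 in replicates 3 and 4 (adjusted p of 0.0212 and 0.0291 by limma), and the difference between the sets did not pass (0.18 ± 0.20 SE, adjusted p = 0.600 by limma). Of the 577 probes that fell, 228 had a larger fall than AT2G46910 and 272 a larger fall than FBN2.

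**Figure D1:**
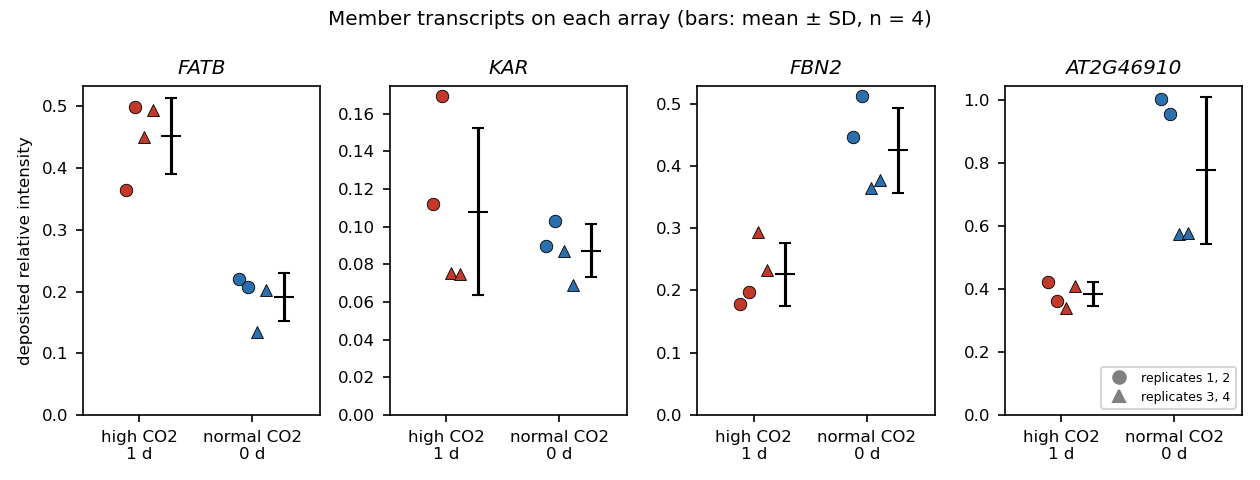
Deposited relative intensity (vertical axes, linear from 0) of FATB, KAR, FBN2 and AT2G46910 on the 4 high CO2 (1 d, red) and 4 normal CO2 (0 d, blue) arrays, with circles for replicates 1 and 2, triangles for replicates 3 and 4, and bars for the mean ± SD. FATB lies higher on all high CO2 arrays, both fibrillins lie lower on all of them, and the groups overlap for KAR.

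**Figure D2:**
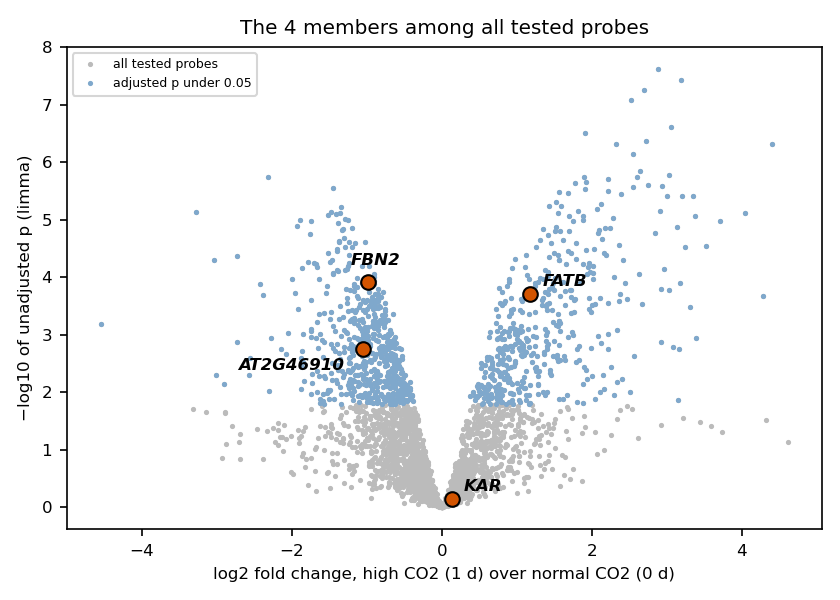
Log2 fold change (horizontal axis, high over normal CO2) against −log10 of the unadjusted limma p (vertical axis) for the 3154 tested probes, with the 4 members in orange and probes with an adjusted p under 0.05 in blue. FATB at 1.18, FBN2 at -0.99 and AT2G46910 at -1.05 lie among many called probes, and KAR lies near 0.

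Over all probes the median log2 fold change was -0.16. Relative to it FATB stood at 1.34, KAR at 0.29, FBN2 at -0.83 and AT2G46910 at -0.89. It lay between -0.18 and -0.03 over the settings tried on these arrays. Removing the trend along probe numbers gave the median of -0.03 and moved FATB to 1.50, FBN2 to -0.74 and AT2G46910 to -0.77, with all 3 calls kept where 27.4% of all probes passed (adjusted p of 0.00219, 0.0185 and 0.0128 by limma). With the pairs of arrays as a random block (correlation 0.55), where 14.0% of all probes passed, the calls of FATB (adjusted p = 0.0327), FBN2 (0.0231) and AT2G46910 (0.0378) were also kept. With the mean of each pair of arrays in place of its 2 arrays, limma called 0 of the 3154 probes (0.00%), with 775 at an unadjusted p under 0.05, and the 3 members had adjusted p-values of 0.134, 0.157 and 0.187.

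**Figure D3:**
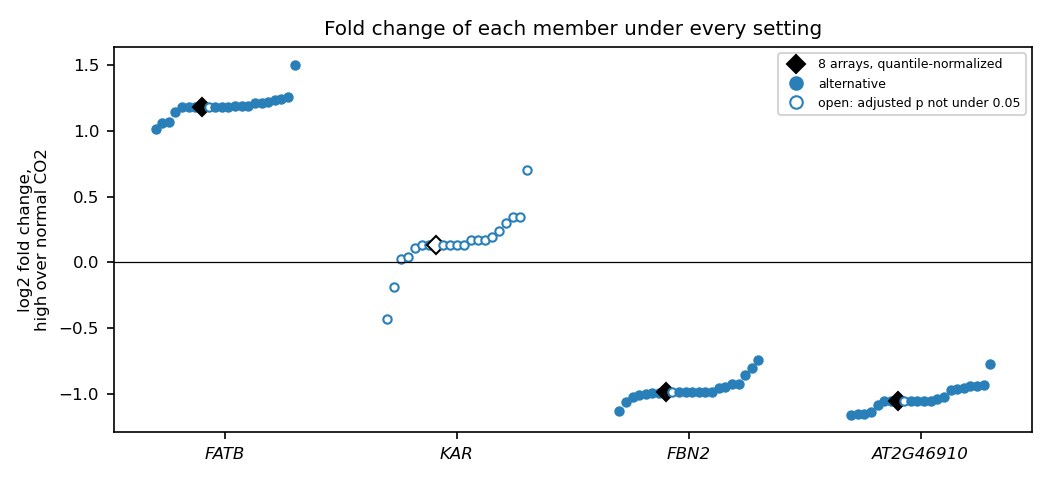
Log2 fold change (vertical axis, high over normal CO2) of each member with all 8 quantile-normalized arrays (black diamonds) and under each alternative (blue circles, sorted by value within a gene), with open symbols where the adjusted p was not under 0.05. FATB stays between 1.01 and 1.50, FBN2 between -1.13 and -0.74 and AT2G46910 between -1.16 and -0.77, while KAR runs from -0.43 to 0.70.

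Ratios between 2 members on the same array do not change when all values of that array are multiplied by a common factor. Quantile normalization can change them. The members' changes were also compared with each other through these ratios. The 6 pairs of members were compared by an exact two-sided permutation test over the 8 arrays, adjusted over the 6 pairs, where the smallest unadjusted p the design allows is 0.0286. These are differences in a log2 ratio of deposited values, and the ratio itself is no ranking of transcript levels, since probes differ in brightness. The test exchanges arrays across the sets, which were unlike. With arrays exchanged only within a set, 36 arrangements exist, the smallest p is 0.0556, and 0 of the 6 pairs can pass. The 5 pairs that passed the first test had this smallest exact permutation p (adjusted p = 0.0667), so their calls rest on treating the 8 arrays as exchangeable.

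The log2 ratio of FATB to FBN2 averaged 1.02 ± 0.30 at high CO2 and -1.16 ± 0.25 at normal CO2 (SD, n = 4 each), a difference of 2.18 (exact permutation p = 0.0286, adjusted p = 0.0343). For FATB to AT2G46910 it averaged 0.23 ± 0.31 at high CO2 and -2.00 ± 0.33 at normal CO2 (SD, n = 4 each), a difference of 2.23 with the same exact permutation p of 0.0286 (adjusted p = 0.0343). On every high CO2 array FATB was above, and both fibrillins were below, all of their normal CO2 arrays. The ratios of FATB to the fibrillins therefore had to separate. Their p was fixed by the values already given and is no further evidence. The difference in ratio was of similar size in both sets of arrays (2.34 and 2.01 against FBN2, 2.32 and 2.14 against AT2G46910, replicates 1 and 2 first).

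Within fatty acid synthesis, the comparison gave a log2 ratio of FATB to KAR of 2.14 ± 0.59 at high CO2 against 1.12 ± 0.40 at normal CO2 (SD, n = 4 each). The difference of 1.02 had the same exact permutation p of 0.0286 (adjusted p = 0.0343), but the groups only just separated, at 1.56 for both the lowest high CO2 and the highest normal CO2 array. With quantile-normalized values the difference was 1.05 and did not pass (adjusted p = 0.0686, exact permutation test). It was 0.48 in replicates 1 and 2 and 1.55 in replicates 3 and 4.

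Against the fibrillins, the log2 ratio of KAR to FBN2 was -1.12 ± 0.81 at high CO2 and -2.29 ± 0.16 at normal CO2 (SD, n = 4 each), a difference of 1.16. The ratio of KAR to AT2G46910 was -1.91 ± 0.58 at high CO2 and -3.12 ± 0.32 at normal CO2 (SD, n = 4 each), a difference of 1.21. Both had an exact permutation p of 0.0286 (adjusted p = 0.0343). In replicates 1 and 2 these differences were 1.86 and 1.84, and in replicates 3 and 4 they were 0.46 and 0.58, so most of their size lay in the first set. The groups were close for KAR to FBN2, with the lowest high CO2 array at -1.96 and the highest normal CO2 array at -2.07. For KAR to AT2G46910 these arrays were at -2.44 and -2.72.

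The pair of fibrillins kept its ratio within the spread of the arrays. The log2 ratio of FBN2 to AT2G46910 was -0.78 ± 0.42 at high CO2 and -0.83 ± 0.25 at normal CO2 (SD, n = 4 each), a difference of 0.05 that did not pass (exact permutation p = 0.857, adjusted p = 0.857). Its sign turned without some of the arrays, with values from -0.14 to 0.20.

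**Figure D4:**
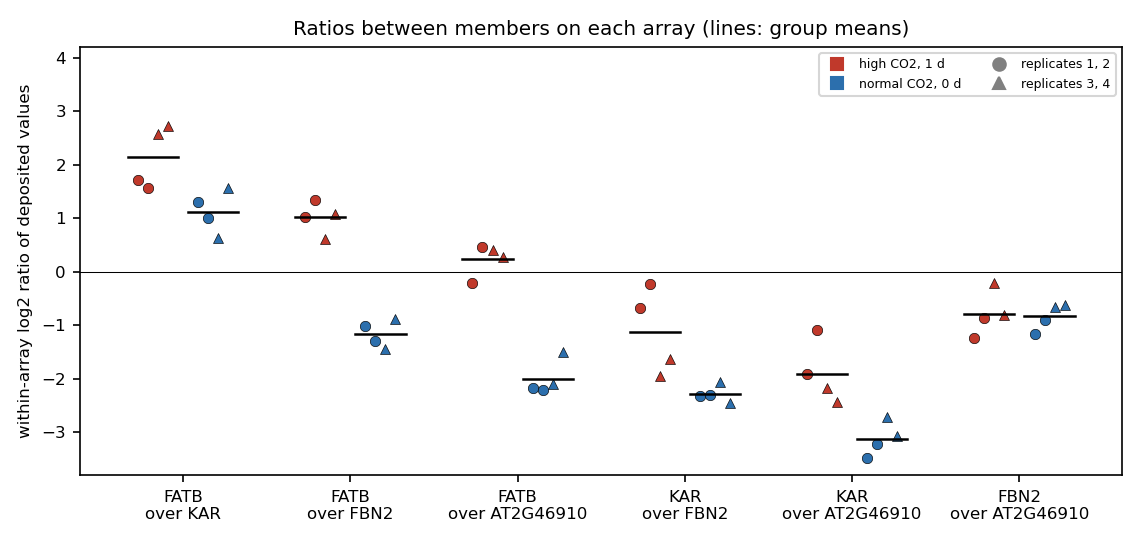
Within-array log2 ratio of deposited values (vertical axis) for the 6 pairs of members on high CO2 (red, left) and normal CO2 (blue, right) arrays, with circles for replicates 1 and 2, triangles for replicates 3 and 4 and lines at group means. The ratios of FATB to both fibrillins are separated by 2.18 and 2.23 between the groups, and the ratio of FBN2 to AT2G46910 differs by 0.05.

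Few other genes of these pathways could be read. Of 89 genes in lists for plastid fatty acid synthesis, fibrillins, other plastoglobule proteins and plastid glycerolipids, 11 were on a probe with 1 gene and 10 were tested. Of the 10, 1 rose, 2 fell and 7 did not pass, and the 3 that passed are members described above. That is 3 of 10 genes, beside 32.6% called over all probes. The members and lists were chosen with earlier results of these data known, so this share is no independent rate for the pathways. The 6 tested genes that are not members did not pass. The median log2 fold change of the 10 tested genes was 0.11, beside -0.16 over all probes. In the 4 fatty acid synthesis lists, 3 of 40 genes were tested, and 0 of the 7 pyruvate dehydrogenase and 0 of the 20 glycerolipid genes were. The list names below come from general knowledge of Arabidopsis, as the annotation gives these genes by locus.

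AT3G56130, listed as BADC1, a protein related to the biotin carrier subunit of acetyl-CoA carboxylase, was the one other tested gene of fatty acid synthesis. It was dim, at 0.0564 ± 0.0348 at high CO2 and 0.0283 ± 0.0165 at normal CO2 (SD, n = 4 each), and its log2 fold change of 0.92 ± 0.66 (SE) did not pass (adjusted p = 0.312 by limma). It passed with the replicate number as a block (0.0437), with the set of arrays as a fixed block (0.0313) and in replicates 1 and 2 alone (0.0450), all adjusted p by limma. It did not pass under the other 17 alternatives, among them the pairs of arrays as a random block (0.443), pairs averaged (0.531) and replicates 3 and 4 alone (0.261). Its log2 fold change was 0.58 with dim values floored, 0.52 with the pseudocount and 0.51 to 1.32 when single arrays were left out. AT5G16230, listed as AAD3, a stearoyl-ACP desaturase, was listed at 0 on all normal CO2 arrays and on high CO2 replicates 2 and 3. It was at 0.0671 and 0.0558 on high CO2 replicates 1 and 4 and was not tested.

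Of the 14 fibrillin genes 5 were tested, and 2 of the 5, FBN2 and AT2G46910, passed, both lower, beside 18.3% lower over all probes. So few genes allow no reading of the family's share of calls. The median log2 fold change of the 5 was 0.05. AT5G19940, listed as FBN6, averaged 0.220 ± 0.0564 at high CO2 and 0.169 ± 0.0335 at normal CO2 (SD, n = 4 each), which gave a log2 fold change of 0.27 ± 0.21 (limma, SE, adjusted p = 0.361). AT5G09820, listed as FBN5, averaged 0.152 ± 0.0447 at high CO2 and 0.120 ± 0.0143 at normal CO2 (SD, n = 4 each), which gave a log2 fold change of 0.16 ± 0.24 (limma, SE, adjusted p = 0.622). Their intervals, from -0.22 to 0.76 and from -0.40 to 0.73 on the log2 scale, do not reach the falls of about 1 log2 unit measured for both members. AT1G51110, listed as FBN10, was at 0 on high CO2 replicate 4, which the fit left out, and its log2 fold change of 0.05 ± 0.47 (SE) has an interval of -1.07 to 1.17 that covers such a fall. The small differences of AT5G19940, AT5G09820 and AT1G51110 had no firm sign, since each turned under at least 1 alternative. The intervals of FBN2 and AT2G46910 themselves reach up to -0.66 and -0.52. With the pairs of arrays as a random block the SE was larger, at 0.35 for AT5G19940 and 0.42 for AT5G09820. Whether the change of the fibrillins differed from one another beyond the pair of members was not tested.

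Among 15 other plastoglobule proteins 2 were tested and 0 passed. AT3G24190, listed as the ABC1-like kinase ABC1K6, had a log2 fold change of 0.08 ± 0.38 (SE), whose sign also turned under alternatives. AT3G27110, listed as the plastoglobule metallopeptidase PGM48, had one of -0.79 ± 0.69 (SE), with the fit leaving out high CO2 replicate 2, where it was at 0. It was -0.29 with dim values floored, -0.30 with the pseudocount and -0.058 in replicates 3 and 4 alone.

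**Figure D5:**
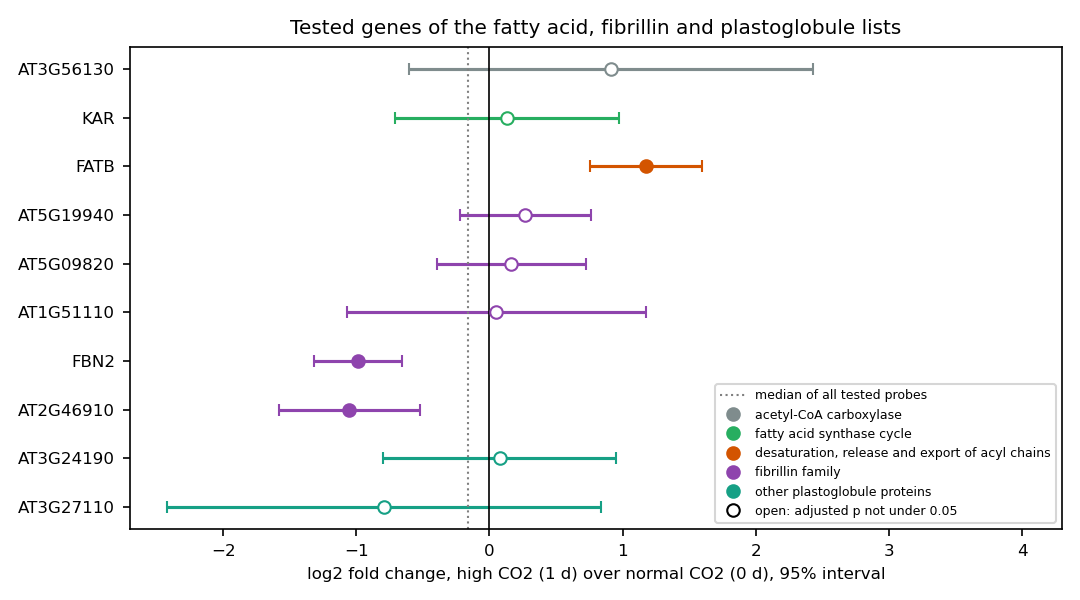
Log2 fold change (horizontal axis, high over normal CO2) with 95% intervals from limma for the 10 tested genes of the lists, coloured by list, with filled symbols where the adjusted p was under 0.05 and a dotted line at the median of all probes. FATB is the one filled symbol on the right, FBN2 and AT2G46910 are the filled symbols on the left, and the other 7 intervals include 0.

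The transcripts most like each member were found by Pearson's correlation of normalized log2 values over the 8 arrays, among 573 other probes with 1 gene that were above 0 on all arrays. The arrays fall into 2 groups, so for a member that changed the measure mostly finds transcripts that changed the same way. It is given as a description, with 3 genes for each member.

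FATB was most like AT5G46560 (r = 0.970), HEMA3, a glutamyl-tRNA reductase gene of tetrapyrrole synthesis (0.955), and AT3G57120 (0.950). All 3 rose, with log2 fold changes of 2.64, 0.95 and 0.92. These 3 also lost their calls with pairs of arrays averaged (adjusted p of 0.108, 0.179 and 0.179 by limma). FBN2 was most like AT1G21660 (r = 0.984), SECE1, a subunit of the plastid Sec translocase (0.967), and AT1G21500 (0.963), which had log2 fold changes of -0.42, -1.18 and -1.68. AT2G46910 was most like AT2G40980 (r = 0.989), PAC (0.989) and AT4G39690 (0.964), with log2 fold changes of -1.07, -0.49 and -0.58. All 6 passed in limma, but each lost its call with pairs of arrays averaged, where 0 of all probes were called. For 4 of them the call was also lost under further settings. Of 21 alternatives each, AT1G21660 did not pass in 13, PAC in 11, AT4G39690 in 7 and SECE1 in 4, the pairs of arrays as a random block among them (adjusted p of 0.117, 0.106, 0.0864 and 0.0521). AT1G21660 was at -0.25 with the values as deposited (adjusted p = 0.166 by limma) and at -0.18 with the position trend removed (0.294). The removal of that trend also gave -0.28 for AT4G39690 (0.175), -0.73 for SECE1 (0.0565), -0.68 for AT2G40980 (0.0499) and -0.80 for PAC (0.00983). AT1G21500 was at -1.04 with the pseudocount. The lists of 3 for both fibrillins have 0 genes in common.

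KAR was most like AT3G22150 (r = 0.900), AT3G19810 (0.886) and AT1G73090 (0.846), of which 0 passed over all 8 arrays (log2 fold changes of 0.20, 0.27 and 0.78). After normalization AT3G22150 shared the opposite signs of KAR in the sets of arrays, at 1.47 in replicates 1 and 2 and -1.06 in replicates 3 and 4. It passed in both sets alone (adjusted p of 0.0162 and 0.0480 by limma). AT1G73090 was at 2.08 in replicates 1 and 2, where it passed, and at -0.50 in replicates 3 and 4, where it did not (adjusted p of 0.0140 and 0.166 by limma). These genes were chosen for their likeness to KAR over the same 8 arrays. A pattern by set shared with KAR can follow from that choice alone, and the p-values within sets are no further evidence for it. What the sets have in common was not tested.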

How the data were processed

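Total RNA of 8 samples was measured on arrays, and the submitters deposited 1 table of relative spot intensity. How the authors made these deposited intensity values (scanning, background, normalization, array type) is not stated in the sources at hand. Genes were taken from the platform annotation through gene identifiers of assembly TAIR10.1, and no coordinates are given. Zeros became missing values, other values were log2-transformed and quantile-normalized between arrays, and probes with at least 3 values per group were kept. The test was limma 3.58.1 (R 4.3.3, two-sided moderated test), and p-values were adjusted by Benjamini-Hochberg over the 3154 probes. Fold changes are high over normal CO2. Ratios between members were tested with scipy 1.17.1. The limma script was tested on simulated data in which the noise was independent between arrays. The simulation had no sets of arrays, so it does not cover their effect on the calls. The genes named are the members, the tested genes of the lists, and the 3 genes most like each member. The members and lists were chosen with earlier results of these data known. Alternatives were median centring, no normalization, a floor at percentile 5, a pseudocount of 0.0549, dropping the 25% of probes with the lowest mean, a trended and robust variance, blocks for replicate number or array set, pairs of arrays as a random block or averaged, each set alone, a running median over 51 probes removed, and leaving out each array. The interaction with array set and the exchange of arrays within sets were added after seeing the data. The number of arrays limits the precision.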

Additional observations from a re-analysis of the deposited data

Results flagged for a closer look

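Among 42 groups of 4 arrays for the genes named, 2 contained an array well apart from its 3 replicates; by chance about 1 in 20 groups, or 2.1, would. For AT1G21500 at high CO2, replicate 1 stood apart by a gap of 0.877 of the range of the 4 log2 values, at a deposited intensity of 0.0327 against 0.0638 to 0.0836 in the others. For AT4G39690 at high CO2 the share was 0.884, also in replicate 1, at 2.35 against 1.84 to 2.13 in the others. Among the members, 0 of the 4 genes had such an array.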

How the results depend on the processing

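FATB, FBN2 and AT2G46910 kept their direction under all 21 alternatives and their call under 20 of the 21 each. The exception was averaging each pair of arrays (log2 fold changes of 1.18, -0.99 and -1.05, adjusted p-values of 0.134, 0.157 and 0.187). There 0 probes were called and 0 of the 3 calls among the list genes were kept. With 2 arrays per group from 1 set, 909 and 850 probes were called. With the pairs as a random block 442 probes were called, against 1029 otherwise. Leaving out each array gave 1.06 to 1.24 for FATB, -1.06 to -0.93 for FBN2, -1.16 to -0.94 for AT2G46910 and -0.19 to 0.35 for KAR, 730 to 914 calls over all probes and 3 calls among the list genes each time. KAR turned to -0.43 in replicates 3 and 4 alone; it was not among the probes kept when the dimmest were left out. Of the calls, 43.9% were higher after quantile normalization, 56.3% with the values as deposited and 55.3% with the position trend removed.

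With an array left out, the ratio tests cannot pass (adjusted p of at least 0.0686 for 5 of the pairs, exact permutation), and the differences were 0.82 to 1.21 for FATB to KAR, 2.07 to 2.31 for FATB to FBN2, 2.15 to 2.39 for FATB to AT2G46910, 0.86 to 1.44 for KAR to FBN2, 0.94 to 1.39 for KAR to AT2G46910 and -0.14 to 0.20 for FBN2 to AT2G46910. With quantile-normalized values FATB to KAR was 1.05 and did not pass. Exchanging arrays within sets only, chosen after seeing the data, leaves the differences as they are (1.02, 2.18, 2.23, 1.16 and 1.21 for the 5 pairs in the same order), with an adjusted p of 0.0667 (exact permutation).

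Among the genes that had not passed, signs turned for FBN5 (-0.032 to 0.31 with an array left out), FBN6 (-0.13 with the position trend removed), FBN10 (-0.27 floored, -0.25 with the pseudocount, -0.32 with the replicate block, -0.13 in replicates 1 and 2 alone, -0.33 with the position trend removed and -0.32 to 0.29 with an array left out), ABC1K6 (-0.17 in replicates 3 and 4 alone, -0.17 to 0.40 with an array left out), AT3G22150 (-1.06 in replicates 3 and 4 alone, -0.19 to 0.66 with an array left out) and AT1G73090 (-0.50 in replicates 3 and 4 alone). The causes were not tested.

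High and normal CO2 arrays of the same number were not treated as pairs: their deviations from the group means had correlations of 0.0639, 0.0999, 0.129 and 0.0708, of which 1 was over 0.1. With the replicate number as a block 845 probes were called, and the members were at 1.18 for FATB (adjusted p = 0.0155), 0.13 for KAR (0.759), -0.99 for FBN2 (0.0180) and -1.05 for AT2G46910 (0.0143).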
